A study of Mus musculus with 8 samples.

Results

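The plasminogen activators Plau and Plat, the urokinase receptor Plaur and the serpins Serpine2, Serpinf1, Serpinb2 and Serping1 were taken as every probe whose trimmed gene symbol was one of these names. Each of the 7 genes had 1 probe, out of 25697 probes with 18138 different symbols. RNA of primary skin fibroblasts was hybridised to 8 Illumina MouseRef-8 v2.0 arrays, 1 per mouse, and all mice were 12 months old. Nd2-mutant fibroblasts came from the conplastic strain C57BL/6J-mtALR/LtJ (males 28 and 32, females 34 and 35), and control fibroblasts came from C57BL/6J-mtAKR/J (males 16 and 17, females 15 and 37). Both strains carry the C57BL/6J nuclear genome and differ in their mitochondrial genome, that of the mutant strain holding a mutation in Nd2, the gene of a subunit of respiratory chain complex I. The cells were early-passage cultures in serum-containing medium, with no sorting step given, so each array reads a bulk culture, and in such samples fewer cells of a type and less RNA per cell cannot be told apart.

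Plasmin, made from plasminogen, digests fibrin and matrix proteins around cells. Urokinase (Plau) and tissue plasminogen activator (Plat) cut plasminogen into plasmin, and the receptor Plaur holds urokinase at the surface of fibroblasts and migrating cells. Serpins trap serine proteases by being cut by them, although some members of the family, Serpinf1 among them, inhibit no protease. Plasminogen activators, their receptor and their inhibitors are often counted among the proteins that senescent fibroblasts secrete, and the arrays were made to compare fibroblasts of the strains at an age at which the study examined senescence.

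Of the 7 members, the urokinase receptor gene Plaur had lower intensities in Nd2-mutant than in control fibroblasts by 0.66 on the log2 scale (SE 0.21, 4 mice per strain), but no member passed the adjusted threshold. Serpine2, Serpinf1 and Serping1 were detected in every culture and differed between mice of 1 strain by as much as or more than between the strains. Plau lay at the limit of detection, Serpinb2 was detected in 1 culture and Plat in none.

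The window before a Plaur transcript is shown because Plaur is the member with the largest strain difference, those of Serpine2 and Serpinb2 because their genes code for inhibitors of the activators. Each is the 250 bases before the start of a RefSeq transcript, 5′ to 3′ on the strand of the gene, from assembly GRCm38.p6, at chr7:24462233-24462482 (plus strand) for Plaur, chr1:79858666-79858915 (minus strand) for Serpine2 and chr1:107511173-107511422 (plus strand) for Serpinb2, which has another, overlapping window. The Plaur and Serpinb2 windows lie inside the spans that RefSeq gives these genes, which begin further upstream, so they are not the sequence before the outermost start. Capitals mark the AP-1 motif TGANTCA, the GC box GGGCGG and the TATA motif TATAAA, searched on both strands, and adjoining or overlapping matches run together.
Plaur: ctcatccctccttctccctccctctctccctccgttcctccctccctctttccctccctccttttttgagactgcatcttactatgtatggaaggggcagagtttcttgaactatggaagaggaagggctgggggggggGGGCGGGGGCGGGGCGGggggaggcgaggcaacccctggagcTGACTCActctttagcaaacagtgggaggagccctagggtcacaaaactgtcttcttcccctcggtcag
Serpine2: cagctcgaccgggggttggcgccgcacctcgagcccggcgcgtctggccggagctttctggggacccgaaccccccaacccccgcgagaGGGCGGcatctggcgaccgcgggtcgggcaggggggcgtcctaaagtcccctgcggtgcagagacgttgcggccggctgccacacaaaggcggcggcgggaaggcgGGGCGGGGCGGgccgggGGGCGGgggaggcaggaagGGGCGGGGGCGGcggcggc
Serpinb2: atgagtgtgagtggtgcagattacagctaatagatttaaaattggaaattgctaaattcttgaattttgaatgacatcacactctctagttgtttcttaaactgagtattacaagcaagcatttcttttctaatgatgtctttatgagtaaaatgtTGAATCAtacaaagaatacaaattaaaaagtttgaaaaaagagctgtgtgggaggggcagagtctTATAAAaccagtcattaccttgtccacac
The Plaur window holds 1 AP-1 match, TGACTCA, whose first base lies 69 bases before the start, and 3 GC boxes at 111, 105 and 100 bases. The Serpine2 window holds 6 GC boxes and no AP-1 or TATA match. In the Serpinb2 window an AP-1 match, TGAATCA, starts 94 bases and a TATA match 29 bases before the transcript. None of the 3 motifs occurs in the Serpinf1 window at chr11:75422624-75422873 (minus strand). Of 32851 windows of the same length, 6.75% hold the AP-1 motif, 32.7% the GC box and 12.4% the TATA motif. Such matches describe letters and do not show that a factor binds there.

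An intensity is the brightness of a probe after the authors' quantile normalization between arrays and background subtraction, on a linear scale that reached 13935 for the brightest probe. Differences were fitted with limma on log2(intensity + 16), Nd2-mutant minus control, with values below 0 set to 0 and p-values adjusted by Benjamini-Hochberg over the 10414 probes that, in at least 1 strain, were detected (detection p under 0.01) in all 4 cultures. Detected probes numbered 10973 to 11350 per Nd2-mutant array and 10663 to 10837 per control array. The array of control mouse 15 stood apart, correlating with the others at 0.934 on average against 0.963 to 0.974 for the rest. Over all tested probes, 0 (0%) passed an adjusted p of 0.05 (smallest adjusted p = 0.639, limma), 795 (7.63%) passed 0.05 unadjusted, 326 (3.13%) of them lower in Nd2-mutant fibroblasts, and 455 (4.37%) had no overlap between the strains. The median difference over all tested probes was 0.00 on the log2 scale, with quartiles at -0.16 and 0.17.

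The cultures carried the markers of their label. All 8 fibroblast markers (Col1a1, Col1a2, Col3a1, Pdgfra, Thy1, Dcn, Lum and Vim) were detected on every array, with summed intensities of 36360 to 41816 in Nd2-mutant and 29346 to 43372 in control cultures. Lum and 1 of the Dcn probes, both genes of small matrix proteoglycans, read higher in each Nd2-mutant than in each control culture, while the other Dcn probe overlapped (adjusted p = 0.639, 0.639 and 0.883, limma). Thus 2 of the 9 tested fibroblast marker probes had no overlap, against 4.37% of all tested probes. Markers of other cell types were detected in part. Of 9 macrophage markers 3 were detected on all 8 arrays, and their summed intensity ran from 286 to 1675 in Nd2-mutant cultures, highest in mouse 35, and from 233 to 591 in control cultures. Of 7 endothelial markers 3 were detected on all 8 arrays, with sums of 133 to 256 in Nd2-mutant and 222 to 617 in control cultures, highest in mouse 15. Emcn, an endothelial surface sialomucin, had no overlap and was lower in Nd2-mutant cultures (80.2 ± 31.5 against 206 ± 67.3, SD, n = 4 each) by -1.20 on the log2 scale (SE 0.27, adjusted p = 0.639, limma). It was the only 1 of 4 tested endothelial probes without overlap, against 4.37% of all tested probes, and Tek was higher (0.49). The keratinocyte markers (2 of 6 on all 8 arrays) summed to 197 to 1168 in Nd2-mutant cultures, highest in mouse 32, and to 323 to 947 in control cultures, highest in mouse 15. Smooth muscle and pericyte markers (4 of 6 on all 8 arrays) summed to 23434 to 25604 and 21331 to 32372, a sum carried by the Acta2 probes. Of the 7 tested probes of that list, 2 passed an unadjusted p of 0.05, against 7.63% of all tested probes, and both were lower in Nd2-mutant cultures. They were Myh11, a smooth muscle myosin (43.3 ± 20.4 against 117 ± 76.4, log2 difference -1.06, SE 0.37), and Cspg4, a pericyte proteoglycan (27.5 ± 6.18 against 47.7 ± 12.2, log2 difference -0.54, SE 0.18), each with an adjusted p of 0.639 (limma). Ptprc, Kdr, Krt1, Cnn1 and Rgs5 were detected on no array.

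The activators themselves gave little signal. Plau, which codes for urokinase (chr14:20836662-20843388, the span of the gene in RefSeq, GRCm38.p6, as for each gene that follows, probe ILMN_2629582), had intensities of 8.83, 16.3, 12.2 and 17.3 in Nd2-mutant mice 28, 32, 34 and 35, and of 21.2, 29.0, 14.1 and 10.6 in control mice 15, 16, 17 and 37. The strains overlapped, and the probe was detected in 3 cultures of each strain, missing in Nd2-mutant mouse 28 and control mouse 37, so that it did not enter the test. The mean was 13.7 ± 3.89 in Nd2-mutant cultures and 18.8 ± 8.15 in control cultures (SD, n = 4 each, exact permutation test, 2-sided, p = 0.371). In a fit over probes detected on at least 1 array, chosen after the values were seen, the difference was -0.21 (SE 0.19, adjusted p = 0.770, limma).

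Plat codes for tissue plasminogen activator (chr8:22757722-22782848, probe ILMN_3003008). Its intensities were 1.48, -1.24, 0.307 and -0.848 in Nd2-mutant mice 28, 32, 34 and 35 and 7.75, 2.80, 6.11 and -1.27 in control mice 15, 16, 17 and 37. The probe was detected on 0 of 8 arrays, while the dimmest detected probe lay at 12.1 or lower on Nd2-mutant arrays and between 12.7 and 13.6 on control arrays, and no fold is given. The 3 probes of Plg, which codes for plasminogen, the substrate of the activators, were also detected on 0 of 8 arrays. A probe that is not detected does not show that its gene was silent.

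The receptor gene Plaur (chr7:24460937-24475970, probe ILMN_2590884) was the tested member with the largest difference. Of the 4 tested members it alone passed an unadjusted p of 0.05 (limma), against 7.63% of all tested probes. The intensities were 63.1, 126, 114 and 67.9 in Nd2-mutant mice 28, 32, 34 and 35, and 159, 162, 160 and 122 in control mice 15, 16, 17 and 37. Mutant cultures 28 and 35 were the lowest, control cultures 15, 16 and 17 lay within a narrow band at the top, and the strains overlapped only where Nd2-mutant mouse 32 exceeded control mouse 37. The means were 92.7 ± 31.9 (SD, n = 4) and 151 ± 18.9 (SD, n = 4). On the log2(intensity + 16) scale the difference was -0.66 (SE 0.21, 95% interval -1.13 to -0.19), or 1.58-fold higher in control, with an unadjusted p of 0.0104 and an adjusted p of 0.639 (limma).

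Plaur ranked 152nd by p and 349th by size of difference among the 10414 tested probes. An exact permutation test of its 8 values (2-sided) gave p = 0.0571, where the smallest p that 4 against 4 allows is 0.0286. The direction was the same in males (-0.74) and in females (-0.58), and without any of the 8 mice the difference stayed between -0.80 and -0.52. All 21 alternative settings kept it lower in Nd2-mutant fibroblasts, and 20 of them kept the unadjusted p under 0.05, the exception being females alone, with 2 mice per strain. Adjusted p-values in limma ranged from 0.325 to 0.945 over these settings. Plaur is on the study's list of differing genes, which was drawn from these same arrays, so that its direction here is not independent evidence. The endothelial marker Emcn and the mural markers Myh11 and Cspg4 also had lower values in Nd2-mutant cultures. Of the tested endothelial probes 3 were lower and 1, that of Tek, higher (0.49), with a median of -0.24. Of the smooth muscle and pericyte probes 5 were lower and 2, both of Acta2, higher (0.33 and 0.25), with a median of -0.23. The other Acta2 probes were lower (-0.15 and -0.23). The part of these markers in the Plaur difference was not tested.

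**Figure D1:**
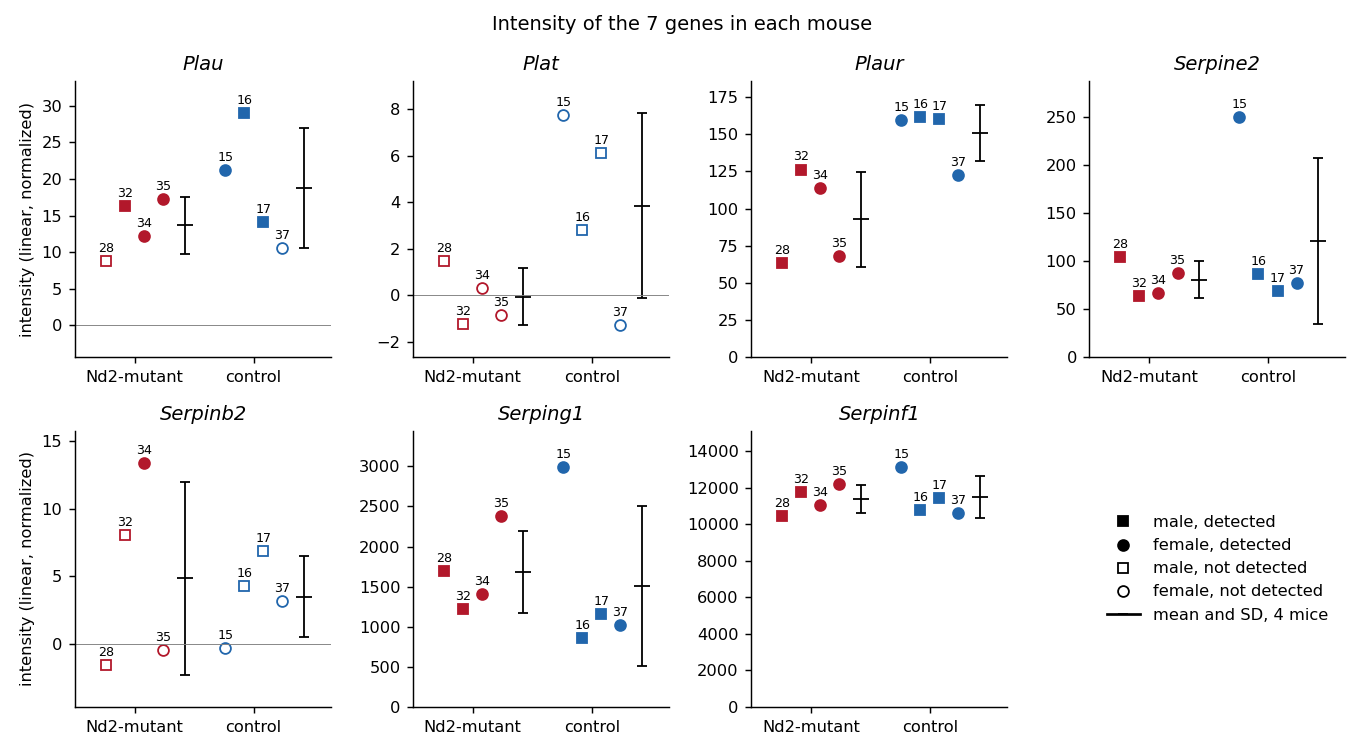
Intensity (linear scale, background subtracted) of the probe of each of the 7 genes in the culture of each mouse, Nd2-mutant and control side by side, with points numbered by mouse (squares male, circles female, open where not detected) and bars for the mean and SD of 4 mice. Plaur lies between 63.1 and 126 in Nd2-mutant and between 122 and 162 in control cultures, and control mouse 15 is highest for Serpine2, Serping1 and Serpinf1.

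Serpine2, or protease nexin 1, inhibits thrombin, urokinase and tissue plasminogen activator at the cell surface (chr1:79794317-79858665, probe ILMN_2883164). Intensities in Nd2-mutant mice 28, 32, 34 and 35 were 104, 64.0, 67.0 and 87.8, and those in control mice 15, 16, 17 and 37 were 250, 86.9, 68.7 and 77.2. Control mouse 15 lay far above the rest, and the other 3 control cultures fell inside the range of the Nd2-mutant ones. The means were 80.7 ± 18.9 and 121 ± 86.3 (SD, n = 4 each), and the log2 difference of -0.35 (SE 0.33, 95% interval -1.07 to 0.38) missed the threshold (adjusted p = 0.757, limma). Without control mouse 15 the difference was 0.03 (SE 0.17) and the control mean 77.6 ± 9.11 (SD, n = 3). That culture also had the highest endothelial marker sum (617, against 222 to 382 in the other controls) and the highest fibroblast marker sum (43372) of the 8. Its smooth muscle and pericyte marker sum (21331) and its Vim intensity (2068) were the lowest of the 8. Among the controls its macrophage (591) and keratinocyte (947) marker sums were the highest, carried largely by Laptm5 (443) and by Krt14 (812). Lyz2 (20.7) and C1qb (14.2) were below those of control mouse 17 (152 and 30.8), and Krt10 (90.9) was the lowest of the 8. The part of these markers in the Serpine2 value was not tested.

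Serpinb2, or plasminogen activator inhibitor 2, inhibits urokinase and is found largely inside cells (chr1:107500892-107525600, probe ILMN_1253874). Its intensities of -1.62, 8.08, 13.4 and -0.511 in Nd2-mutant mice 28, 32, 34 and 35 and -0.336, 4.25, 6.88 and 3.16 in control mice 15, 16, 17 and 37 were detected in Nd2-mutant mouse 34 alone. The gene did not enter the test. With probes detected on at least 1 array, a fit chosen after the values were seen gave 0.09 (SE 0.22, adjusted p = 0.915, limma).

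Serping1, the C1 inhibitor, blocks the first proteases of the complement cascade and plasma kallikrein (chr2:84765360-84775444, probe ILMN_2913166). Intensities were 1697, 1215, 1412 and 2383 in Nd2-mutant mice 28, 32, 34 and 35, and 2994, 861, 1161 and 1024 in control mice 15, 16, 17 and 37. The highest value was again that of control mouse 15, followed by Nd2-mutant mouse 35, while the 3 lowest values were all from control cultures. Means of 1677 ± 511 and 1510 ± 997 (SD, n = 4 each) gave a log2 difference of 0.29 (SE 0.36, 95% interval -0.51 to 1.09, adjusted p = 0.815, limma).

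The size of the Serping1 difference depended on single cultures. Without control mouse 15 the control mean was 1015 ± 150 (SD, n = 3), every Nd2-mutant culture (1215 or more) lay above every control culture (1161 or less), and the log2 difference was 0.68 (SE 0.22, unadjusted p = 0.0128, adjusted p = 0.614, limma). An exact permutation test of the remaining values gave p = 0.0571, where the smallest possible p is 0.0286. Mouse 15 had the highest value, and its removal was singled out after the values were seen. With that mouse left out, 811 probes (7.79%) passed an unadjusted p of 0.05 and 825 (7.92%) had no overlap. Without Nd2-mutant mouse 35 the difference was 0.11, and without control mouse 16 it was 0.09. Nd2-mutant mouse 35 also had the highest summed macrophage markers (1675), with C1qb, Cd68 and Lyz2 at 212, 145 and 344. Laptm5 gave the largest part of that sum (673, and 443 in control mouse 15). Csf1r (39.5) was close to its value in control mouse 37 (36.9), and Ptprc was not detected. The part of these markers in the Serping1 level was not tested.

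Serpinf1, or pigment epithelium-derived factor, is a secreted serpin without known protease inhibition that acts on blood vessels and neurons (chr11:75410029-75422623, probe ILMN_2639239). Its intensities were 10463, 11761, 11027 and 12214 in Nd2-mutant mice 28, 32, 34 and 35 and 13137, 10747, 11412 and 10610 in control mice 15, 16, 17 and 37. The strains overlapped throughout. The means were 11366 ± 776 and 11477 ± 1161 (SD, n = 4 each), and the log2 difference of -0.01 had a 95% interval of -0.31 to 0.28 (SE 0.13, adjusted p = 0.984, limma). This probe was brighter than 99.97% of the probes on the array and lay close to the top of the scale.

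**Figure D2:**
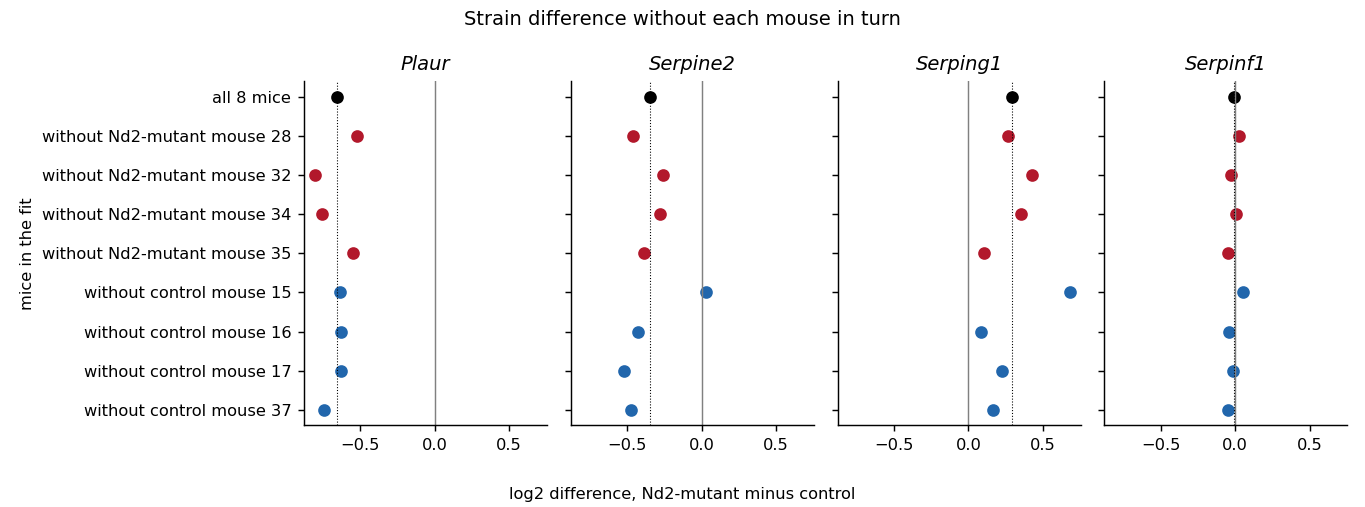
Log2 difference, Nd2-mutant minus control, of the 4 tested members with all 8 mice and without each mouse in turn. Plaur stays between -0.80 and -0.52, Serpine2 moves from -0.35 to 0.03 and Serping1 from 0.29 to 0.68 when control mouse 15 is left out.

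Among the 8 cultures, control mouse 15 ranked highest for Serpine2, Serping1 and Serpinf1. For Plaur it was level with control mice 16 and 17 at the top (159, 162 and 160). In other cultures the tested members did not share their order. Control mice 16 and 17 were at the top for Plaur but below the median of the 8 for Serping1. Nd2-mutant mouse 28 was the lowest for Plaur and Serpinf1 and second highest for Serpine2. The spread within the control strain was wider than within the Nd2-mutant strain over all tested probes, with median SDs of 0.29 and 0.18 on the log2 scale.

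**Figure D3:**
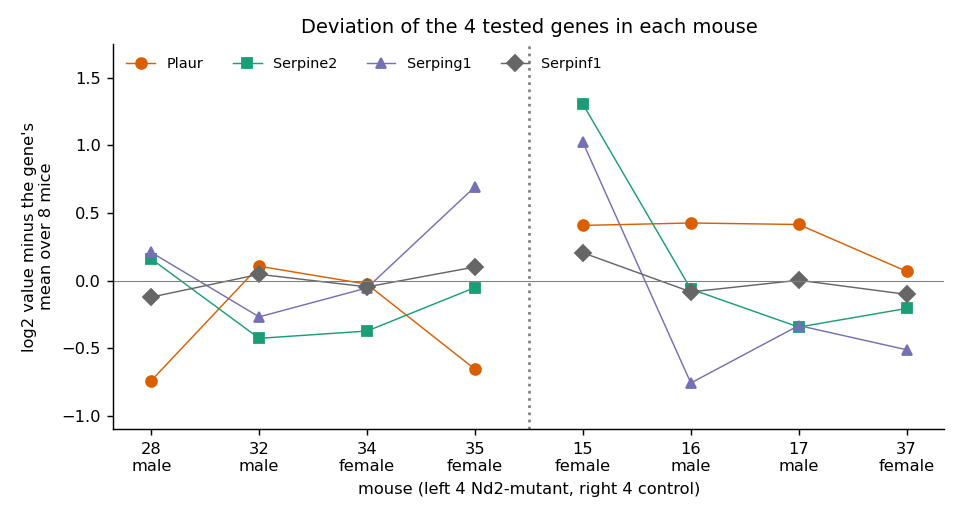
Deviation of each culture from the mean of the 8 mice, in log2(intensity + 16), for the 4 tested members, with lines joining the points of 1 gene as a guide only. Control mouse 15 lies far above 0 for Serpine2 and Serping1, and Nd2-mutant mice 28 and 35 lie lowest for Plaur.

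No sex difference of a tested member passed the threshold. With strain as a term, the male minus female difference was 0.10 for Plaur (SE 0.22), -0.34 for Serpine2, -0.58 for Serping1 (SE 0.33, unadjusted p = 0.110, limma) and -0.08 for Serpinf1, and 0 of these 4 passed an unadjusted p of 0.05, against 8.31% of all tested probes. Neither was the strain difference shown to differ between the sexes. The strain by sex terms (male minus female) were -0.16 for Plaur, 0.83 for Serpine2 (SE 0.63), 0.45 for Serping1 and 0.03 for Serpinf1, 0 of them past an unadjusted p of 0.05, against 1.77% of all tested probes. Mouse 15 is 1 of the 2 control females, so that it enters each of these comparisons.

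The other genes of the plasmin system moved in both directions. Of 29 listed genes, all with a probe, 14 were detected on all 8 arrays and 13 on none, and 17 probes of 14 genes entered the test, 8 of them higher and 9 lower in Nd2-mutant fibroblasts, with a median difference of -0.09 (0.04 without control mouse 15). None passed the adjusted threshold (smallest adjusted p = 0.639, limma) and 1 of the 17 passed an unadjusted p of 0.05, against 7.63% of all tested probes. That probe was for Thbs1, which codes for thrombospondin 1, a matrix protein that binds plasminogen and its activators. Thbs1 had intensities of 1343, 905, 1018 and 563 in Nd2-mutant mice 28, 32, 34 and 35 and 245, 266, 391 and 822 in control mice 15, 16, 17 and 37. The strains overlapped through control mouse 37 and Nd2-mutant mouse 35, and the means were 957 ± 322 and 431 ± 268 (SD, n = 4 each). The Thbs1 difference was 1.22 (SE 0.37, adjusted p = 0.639, limma), with an exact permutation p of 0.0571. The 3 brightest tested genes of the list were Anxa2, part of a plasminogen receptor (-0.09), the protease Ctsb, which can activate pro-urokinase (0.03), and Eno1, a glycolytic enzyme that also binds plasminogen (0.32).

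Of 18 targets and receptors of the member serpins, 7 probes of 6 genes were tested, 6 higher and 1 lower, while 49.8% of all tested probes were lower. Their median was 0.32, but 0.036 with no filter on detection. The 6 higher include C1qb and both probes of C1s. Of the 7, 1 passed an unadjusted p of 0.05 (limma), against 7.63% of all tested probes. C1qb, also a macrophage marker, was among those higher (1.08, SE 0.54), with 212 in mouse 35 and 20.9 to 26.3 in the other Nd2-mutant cultures. Detected on 3 of 4 control arrays, C1qb entered the test only through the Nd2-mutant arrays, where it was higher. Its difference and its place in that count are given as a description. C1s, the complement protease that Serping1 inhibits, was higher by 0.56 (SE 0.25, unadjusted p = 0.0455, limma) at 1 probe and by 0.62 (unadjusted p = 0.0673, limma) at the other, and 0 passed the adjusted threshold. The 3 brightest genes were F2r, a thrombin receptor (-0.06), Pnpla2, a lipase that binds Serpinf1 (0.00), and C4b, a complement component (0.14). Among 52 other serpin genes with 64 probes, 42 were detected on no array and 7 probes were tested, 4 higher and 3 lower. Their median of 0.12 turned to -0.14 without Nd2-mutant mouse 35 and to -0.06 without control mouse 16. With probes detected on at least 1 array it was -0.17. Serpinb1a, an inhibitor of neutrophil proteases, was higher by 0.55 (SE 0.21), with means of 35.7 ± 13.6 and 18.8 ± 5.93 (SD, n = 4 each, exact permutation p = 0.0571, adjusted p = 0.639, limma). It was detected on 3 of 4 control arrays and entered the test only through the Nd2-mutant arrays, where it was higher, so its difference is given as a description. Serpinb6c (-0.40), named for its detection alone, was detected on 2 Nd2-mutant and 4 control arrays. It entered only through the control arrays, where it was higher. The counts and the median of the other serpins include Serpinb1a and Serpinb6c. Serpina10, a serpin that inhibits clotting factor X, missed the filter, being detected on 0 Nd2-mutant and 2 control arrays, and is named after its values were seen. Its intensities lay between -2.99 and 1.501 in Nd2-mutant and between 8.94 and 25.3 in control cultures, without overlap, and no fold is given. It is also on the list drawn from these arrays. The brightest tested were Serpinb6a (0.12), Serpinh1, a collagen chaperone (-0.24), and Serpina3n (0.32).

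**Figure D4:**
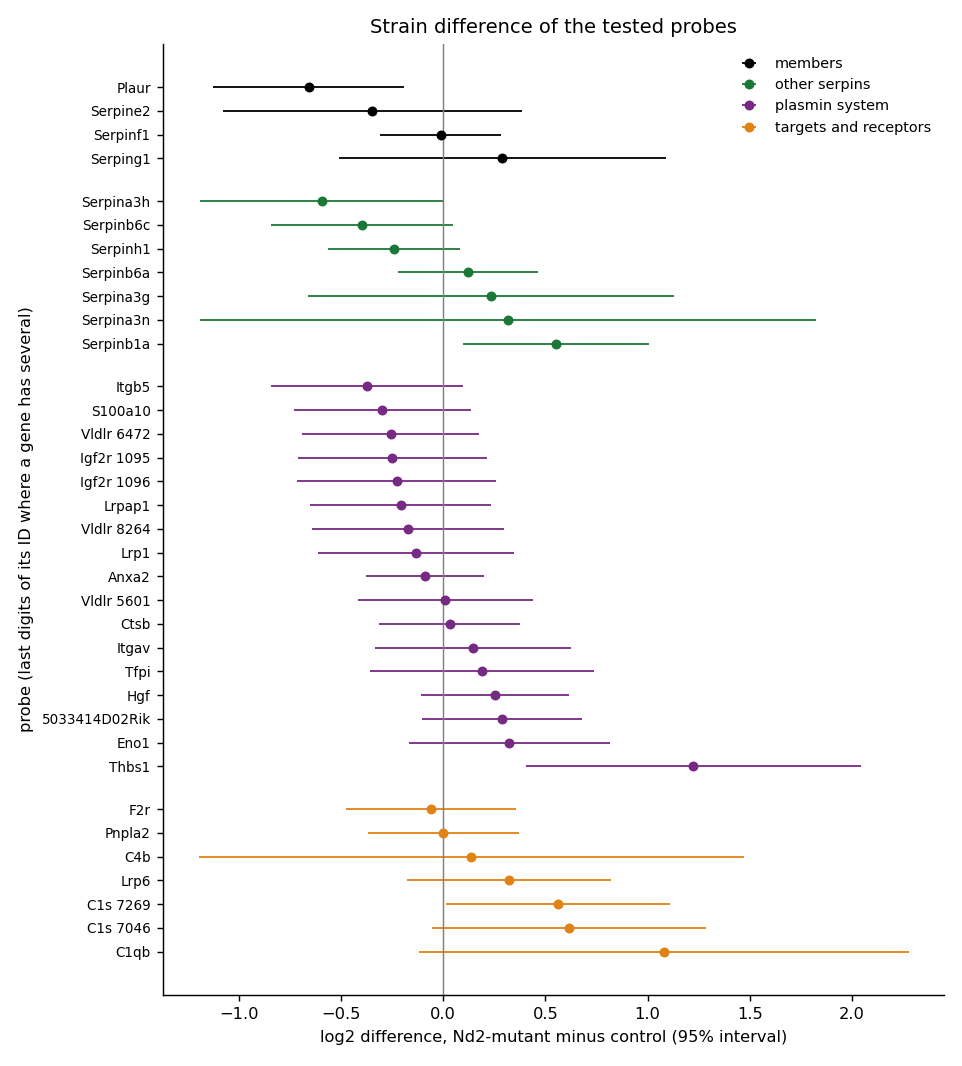
Log2 difference, Nd2-mutant minus control, with its 95% interval for every tested probe of the members, the plasmin system, the targets and receptors, and the other serpins. Plaur lies below 0 and Thbs1, Serpinb1a and 1 of the C1s probes above 0 with intervals that exclude 0 before adjustment, while 0 of these probes passed after adjustment over 10414 probes. Serpinb1a and C1qb entered the test only through the Nd2-mutant arrays and Serpinb6c only through the control arrays, in each case where the probe was higher.

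Some genes followed a member closely across the 8 cultures. The probes with the highest correlation of log2 values with Plaur were those of Tgm2 (Pearson r = 0.98, 0.94 without mice 28 and 35) and Ptcd3 (r = 0.97). Serpine2 was followed most closely by Gng7 (r = 0.99, 0.87 without mice 15 and 28) and Tcf4 (r = 0.99), Serping1 by BC006779 (r = 0.98, 0.96 without mice 15 and 35) and Odz3 (r = 0.98), and Serpinf1 by Elp2 (r = 0.96, 0.86 without mice 15 and 35) and Zfp768 (r = 0.96). These were the highest of 10414 probes over 8 arrays and are given as a description, with no p. 28 probes correlated above 0.9 with Plaur, 192 with Serpine2, 84 with Serping1 and 24 with Serpinf1.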

How the data were processed

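RNA of skin fibroblasts was hybridised to Illumina MouseRef-8 v2.0 arrays of 8 mice. The authors quantile normalized the intensity of each probe in GenomeStudio (version not given in the sources used here) and subtracted the background. The deposited detection p-value was computed by their software. The normalized and the non-normalized table held identical bytes, so no other normalization was run. Negative intensities were replaced by 0 and values transformed to log2(intensity + 16). Probes with a detection p under 0.01 on all 4 arrays of a strain entered a 2-sided test in limma 3.58.1 (R 4.3.3), adjusted by the Benjamini-Hochberg procedure. Single genes also had an exact permutation test. Groups came from the sample labels, and gene spans from RefSeq. Where in its transcript each probe lies was not analysed here.

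Named genes were the members, Plg, tested list genes with an unadjusted p under 0.05 or no overlap, the 3 brightest per list, the 2 probes most like each tested member, and markers; another named gene is not reported here. Serpina10 and Serpinb6c were added after the values were seen. The members and lists were chosen with earlier results of these data known. The steps were tested on simulated data. The number of arrays limits the precision. Alternatives were other added values, filters and models, each sex and each mouse left out.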

Additional observations from a re-analysis of the deposited data

Results flagged for a closer look

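Among 48 groups of 4 mice examined, 4 held a mouse whose gap to the nearest other value took a large share of the range of its group, where 2.4 are expected by chance at 1 in 20. For Plaur in control cultures that share was 0.949 (mouse 37, the lowest), and without mouse 37 the other 3 control cultures lay between 159 and 162. For Serpine2 in control cultures it was 0.830 (mouse 15, the highest), just past the threshold.

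The summed macrophage markers of the Nd2-mutant cultures gave 0.919 (mouse 35) and the summed keratinocyte markers 0.866 (mouse 32). The part of these cultures' markers in the levels of the serpins was not tested.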

How the results depend on the processing

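No paired analysis was possible because the mouse numbers of the strains are not shared. Normexp and other normalizations, and a chip block, were not run, since the values came normalized and no chip is named. Leaving out mice for the sex and strain by sex fits was chosen after seeing the data.

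The count at an adjusted p of 0.05 (0) became 3 with no filter and 1 with the methods' t-test, and stayed 0 without any mouse. At an unadjusted p (795) it was 1587 with no filter, 502 in males, 317 in females and 432 to 1438 without each mouse. Probes without overlap (455) numbered 746 with no filter, 3608 in males, 3430 in females and 595 to 1198 without each mouse. With fewer mice, groups fail to overlap more often by chance. The counts in 1 sex or without a mouse are therefore not comparable with 455. Leaving out each mouse gave -0.80 to -0.52 for Plaur, -0.52 to 0.032 for Serpine2, 0.086 to 0.68 for Serping1 and -0.047 to 0.0555 for Serpinf1. Serpine2 turned to 0.070 in males, and Serpinf1 to 0.045 with array weights and 0.0024 in males.

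The median of the plasmin system moved between -0.14 and 0.037 without each mouse. That of the targets was 0.036 with no filter, 0.082 in females and 0.17 to 0.58 without each mouse, and that of the other serpins -0.17 with probes detected on at least 1 array, -0.079 in males and -0.14 to 0.11 without each mouse.

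The strain by sex term passed the adjusted threshold at 1 probe, at 0 with 1 added or no filter, at 2 with a trend and at 0 to 2 without each mouse. Unadjusted (184), it was 1212 with no filter and 64 to 1677 without each mouse. Sex passed at 2 probes, 1 with 50 added, 391 with array weights and 0 to 11 without each mouse. Unadjusted (865), it was 1742 with no filter, 2160 with array weights and 499 to 1814 without each mouse. Without each mouse, the strain by sex terms were -0.58 to 0.26 for Plaur, 0.076 to 1.59 for Serpine2, -0.32 to 1.22 for Serping1 and -0.13 to 0.18 for Serpinf1, and the sex differences -0.050 to 0.29, -0.56 to 0.048, -0.84 to -0.22 and -0.14 to -0.014. Serpinf1 turned to 0.023 by sex with array weights. The causes were not tested.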
